A study of Homo sapiens with 24 samples.

Results

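HSPA5 encodes BiP (also called GRP78), the HSP70 chaperone of the endoplasmic reticulum (ER), and is followed here over all conditions of an RNA-Seq experiment in HepG2, an established human hepatoma line. It is 1 of the 18915 genes in the count table (ENSG00000044574), and its row was found by its gene name. The cells were exposed for 10 h to vehicle (DMSO), to 50 nM ISRIB, to 20 µM nelfinavir, to 50 nM bortezomib, or to 50 nM bortezomib combined with either 50 nM ISRIB or 20 µM nelfinavir. There were 4 libraries per condition, described by the submitters as biological replicates, and 24 libraries for the 6 conditions. All were from unmodified cells of the same line, at a single time and a single dose of each compound. Bortezomib blocks the proteasome, nelfinavir is an HIV protease inhibitor that raises phosphorylated eIF2α, and ISRIB makes translation insensitive to that phosphorylation. The comparisons address how the stress response to proteasome inhibition changes when eIF2α signalling is strengthened or blocked.

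BiP holds unfolded stretches of proteins that enter the ER and releases them in a cycle of ATP hydrolysis. J-domain cochaperones bring clients to it and speed hydrolysis, and nucleotide exchange factors reopen it. BiP also binds the luminal parts of the stress sensors encoded by ERN1 (IRE1), EIF2AK3 (PERK) and ATF6 in unstressed cells, and its messenger RNA is among the classical readouts of the unfolded protein response (UPR), mainly through cleaved ATF6 acting on ER stress response elements (ERSE) in its promoter. The liver secretes large amounts of protein, and hepatocytes hold much BiP.

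In the GRCh37 build used by the authors, HSPA5 lies on the minus strand of chromosome 9 at chr9:127997132-128003661 and has 8 exons. Its last exon, where reads of a 3′ end protocol mostly fall, spans chr9:127997132-127999433. No other annotated gene overlaps HSPA5. RABEPK runs toward it on the plus strand and ends 691 bases before the 3′ end of HSPA5, and the lncRNA HSPA5-DT starts 280 bases upstream on the other strand. The last 500 bases of the HSPA5 transcript had no alignment of at least 80 bases at 97% identity to a transcript of any other annotated gene. The closest relative of the whole transcript was a processed pseudogene, ENSG00000250746, with 91.88% identity over 2069 bases.

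The 250 bases before the HSPA5 start site are shown because the ERSE letters lie there. They come from RefSeq (GRCh38.p14, chr9:125241344-125241593, minus strand), and capitals mark the CCAAT boxes on either strand and the CCACG part of the ERSE.

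HSPA5 promoter: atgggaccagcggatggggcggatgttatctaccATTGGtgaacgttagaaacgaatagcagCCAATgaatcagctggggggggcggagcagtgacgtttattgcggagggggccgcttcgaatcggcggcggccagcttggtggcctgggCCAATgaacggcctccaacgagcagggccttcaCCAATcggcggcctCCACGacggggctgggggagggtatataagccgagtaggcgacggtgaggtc

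The ERSE was searched on both strands as CCAAT and CCACG separated by 9 bases. HSPA5 held 1 exact match, from 66 to 48 bases before the start, within a window with 4 CCAAT boxes. The same window of 22 of 27303 RefSeq promoters (0.0806%) held an exact match. Promoters were supplied for 36 of the genes on the ER lists described below, and 6 of them had a match, with 2 sites in HSP90B1. XBP1, which encodes a UPR transcription factor, had a match as well. These sites are listed so that the spacer can be compared, with CCAAT and CCACG in capitals.

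HSPA5: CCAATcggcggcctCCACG
HSP90B1, distal: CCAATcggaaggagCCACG
HSP90B1, proximal: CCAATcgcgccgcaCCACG
CALR: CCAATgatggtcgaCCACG
CANX: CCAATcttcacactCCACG
ERO1B: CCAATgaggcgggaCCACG
FICD: CCAATgggagtggcCCACG
CRELD2: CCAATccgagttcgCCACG
XBP1: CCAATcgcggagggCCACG

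**Figure D1:**
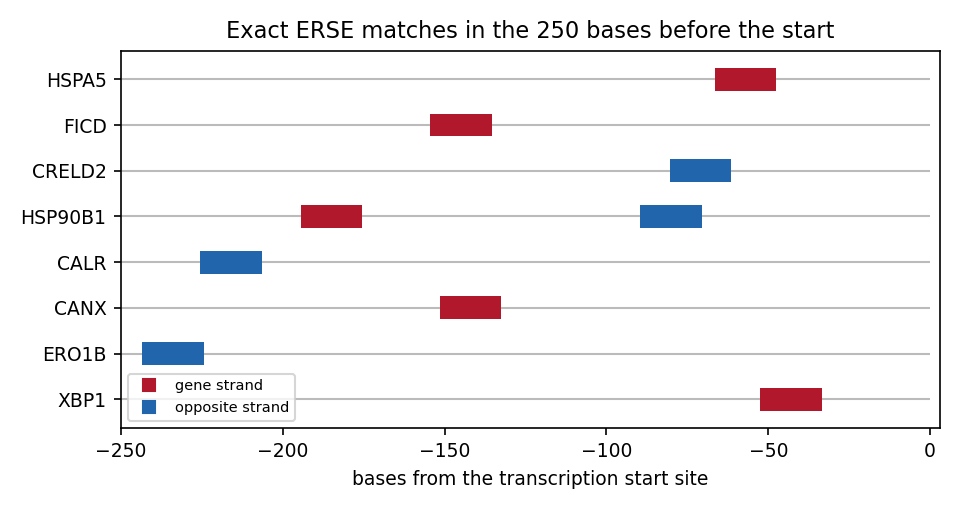
Positions of exact ERSE matches (boxes) in the 250 bases before the transcription start site, which is at 0 on the x axis in bases, for 8 genes (y axis). Red boxes are on the strand of the gene and blue boxes on the opposite strand, and the HSPA5 match spans 66 to 48 bases before the start.

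The HSPA5 window had no exact match to the shorter ERSE-II (ATTGG and CCACG separated by 1 base), to the UPR element TGACGTGG, to the cyclic AMP response element TGACGTCA, to the C/EBP-ATF composite TGATGNAAT bound by ATF4, or to a heat shock element. Over all promoters these were found in 0.0513%, 0.667%, 1.77%, 0.916% and 0.429%, respectively. The C/EBP-ATF letters were in none of the 10 ATF4 target promoters either. Their absence therefore does not set HSPA5 apart from these targets. ERSE-II was present in HYOU1, SDF2L1 and HERPUD1. None of the 10 ATF4 target promoters and none of the 12 promoters of other HSP70 genes held an exact ERSE. The ERSE was originally described in promoters of ER chaperone genes such as these, so its presence in them is not independent of their choice, and a match is a description of letters only.

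Total counts on genes ran from 5154533 to 6943164 per library. Levels are given as CPM, counts relative to the library size after scaling with TMM factors, which equalise the typical gene between libraries. The mean share of mitochondrially encoded genes lay between 20.5% and 21.9% in the conditions without bortezomib, and was 33.8% with bortezomib, 36.1% with ISRIB added to it and 27.2% with nelfinavir added. All 8 hepatocyte genes used to check the line (including ALB, AFP and APOA1) were measured, and COL1A1, a fibroblast marker, was too low to test. In bulk RNA, a change in the level per cell cannot be told apart from a change in the number or RNA content of the cells that contribute.

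HSPA5 was at a similar level in the 3 conditions without bortezomib, moderately higher with bortezomib alone, and highest when bortezomib was combined with either other compound. In DMSO the libraries were at 1400, 1455, 1456 and 1526 CPM, a mean of 1459 ± 51.8 (SD, n = 4). With ISRIB they were at 1410, 1370.2, 1534 and 1369.5 CPM (1421 ± 77.6), and with nelfinavir at 1734, 1399, 1684 and 1507 CPM (1581 ± 156). These ranges overlap one another.

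Bortezomib libraries were at 2278, 2148, 1905 and 2204 CPM (2134 ± 161), above every library without bortezomib. With bortezomib and ISRIB the values were 9768, 10205, 11309 and 8802 CPM (10020 ± 1040, n = 4). With bortezomib and nelfinavir they were 11476, 12296, 16943 and 12954 CPM (13420 ± 2427, n = 4). The lowest co-treated library was thus above every library of the other 4 conditions, and the ranges of the co-treatments did not overlap each other.

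In raw counts, HSPA5 had between 9019 and 14518 reads in the libraries of the 4 lower conditions and between 35657 and 86241 in the co-treated ones. Its share of all counts rose from 0.176% in DMSO and 0.183% in bortezomib to 0.822% with ISRIB and 1.12% with nelfinavir added to bortezomib. The most HSPA5-rich library, replicate 3 of bortezomib with nelfinavir, had 1.397% (exact Clopper-Pearson 95% interval 1.388% to 1.406%, counting error only). By number of reads HSPA5 was between the 37th and the 49th gene in libraries without bortezomib, between the 29th and the 34th with bortezomib, and between the 10th and the 13th in the co-treatments.

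**Figure D2:**
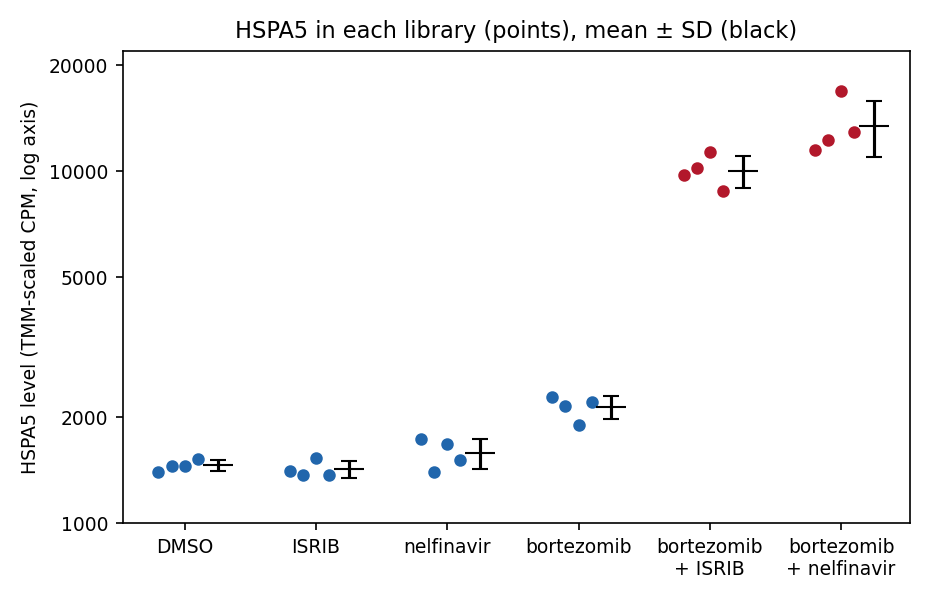
HSPA5 level (y axis, TMM-scaled CPM on a log axis) in each library (points) of the 6 conditions (x axis), with the mean ± SD in black (n = 4). Libraries without co-treatment (blue) lie between 1370 and 2278 CPM, and the co-treated libraries (red) between 8802 and 16943 CPM.

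All 15 pairs of conditions were compared with a two-sided exact permutation test on log2 CPM, for which 4 libraries against 4 cannot give a p below 0.0286. The groups did not overlap in 12 pairs, and each of these reached that smallest value (adjusted p = 0.0357 over 15 pairs, exact permutation test). The order of levels was bortezomib with nelfinavir, bortezomib with ISRIB, bortezomib, nelfinavir, DMSO and ISRIB. Neighbours in this order differed beyond their spread down to bortezomib against nelfinavir, whereas nelfinavir, DMSO and ISRIB did not separate (exact permutation p from 0.143 to 0.400 for their 3 pairs). The place of bortezomib in this order depended on the scaling. By library totals alone nelfinavir was at 1876 CPM and bortezomib at 1826 CPM, and the log2 difference of bortezomib from nelfinavir was -0.04 (adjusted p = 0.754 by edgeR).

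Bortezomib alone raised HSPA5 1.46-fold over DMSO (log2 fold change 0.55 ± 0.098 SE, 95% interval 0.35 to 0.75, adjusted p = 1.57e-05). Of all 12685 genes tested, 53.4% were called in this comparison in one direction or the other, and HSPA5 had rank 1404 by p among the genes that were higher. This rise depended on the scaling. With library totals alone, which lower the log2 fold changes of this comparison by 0.50, the change was 0.05 (adjusted p = 0.680). The libraries' own totals put HSPA5 at 1762 CPM in DMSO and 1826 CPM in bortezomib.

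The ER genes that work with BiP were mixed under bortezomib alone. On 5 lists (J-domain cochaperones, nucleotide exchange factors and regulators, folding partners, ER-associated degradation (ERAD) and KDEL receptors) 40 genes were tested, of which 19 rose and 5 fell, with a median log2 fold change of 0.21 against 0.002 for all genes. Over all genes tested, 27.6% rose and 25.8% fell. With library totals alone 5 rose and 20 fell. The largest rises were in DNAJB9, a J-domain cochaperone (1.81 ± 0.325), ERO1B, an oxidase that supplies disulfide bonds (1.80 ± 0.265), and HERPUD1, a membrane component of ERAD (1.38 ± 0.211). CRELD2, an ER stress-responsive protein, fell (-0.84 ± 0.132), as did KDELR2 and KDELR3, receptors that return BiP and other KDEL-ended proteins from the Golgi.

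Of the 12 other HSP70 family genes tested, 11 rose with bortezomib, where 27.6% of all genes did. HSPA13, another member found at the ER, rose by 1.45 ± 0.147. HSPA1A changed by 5.49 ± 0.139 and HSPA1B by 5.23 ± 0.124 on the log2 scale. These genes are close copies, and whether their reads were told apart was not checked. HSPH1, a cytosolic exchange factor, rose by 2.58 ± 0.121. HSPA8, the constitutive cytosolic member, rose by 1.33 ± 0.189, and HSPA9, the mitochondrial member, by 1.02 ± 0.102. HSPA6 was not counted in any DMSO library, so no fold is given. Within the same library, HSPA5 had 4.50 counts for each HSPA8 count in DMSO and 2.60 in bortezomib (log2 change -0.79, exact permutation p = 0.0286, adjusted p = 0.0476 over 15 ratios). Its ratio to HSP90B1, the ER member of the HSP90 family, was 1.20 in DMSO and 1.28 in bortezomib (exact permutation p = 0.114).

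Nelfinavir alone did not change HSPA5 beyond the spread between libraries (log2 fold change 0.12 ± 0.097 SE, 95% interval -0.08 to 0.31, adjusted p = 0.477), in a comparison where 19.2% of genes were called. All 11 tested ATF4 targets rose in the same libraries, among them VLDLR (4.79 ± 0.529) and ASNS (4.0 ± 0.124), an amino acid synthesis gene. Of the 40 ER genes, 12 rose and 2 fell, with a median of 0.12. The number that fell was not stable, with 8 when only the groups compared were fitted and 0 without nelfinavir replicate 4, and it was 1 without nelfinavir replicate 3 or without any single DMSO library. ERO1B rose by 1.21 ± 0.263, DNAJB9 by 0.94 ± 0.325 and HERPUD1 by 0.81 ± 0.209, whereas SDF2L1, a BiP cofactor, fell (-0.44 ± 0.134).

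ISRIB alone left HSPA5 at a log2 fold change of -0.04 ± 0.097 SE (95% interval -0.24 to 0.16, adjusted p = 1). In this comparison 0% of genes were called by edgeR, with 703 at an unadjusted p under 0.05, and DESeq2 called 1 gene higher and 20 lower. None of the 40 ER genes and none of the 11 ATF4 targets passed edgeR's test, although 2 ER genes were called lower when only these groups were fitted and 1 without a filter.

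Adding nelfinavir to bortezomib raised HSPA5 6.29-fold over bortezomib (log2 fold change 2.65 ± 0.103 SE, 95% interval 2.44 to 2.86, adjusted p = 3.15e-19). HSPA5 had the smallest p of the 12685 genes, of which 28.9% were called in one direction or the other, and the rank 82 by the size of its rise. Adding ISRIB to bortezomib raised HSPA5 4.70-fold (2.23 ± 0.102 SE, 95% interval 2.02 to 2.44, adjusted p = 4.13e-17), again with the smallest p of all genes. Here 12.2% of genes were called, and HSPA5 was at rank 124 by size. Both comparisons use the same 4 bortezomib libraries.

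Against their matching single compounds the co-treatments gave similar differences. HSPA5 was 8.49-fold higher in bortezomib with nelfinavir than in nelfinavir, and 7.05-fold higher in bortezomib with ISRIB than in ISRIB. Against DMSO it was 9.20-fold and 6.87-fold higher, respectively (log2 fold changes 3.20 and 2.78). Each of these differences had an adjusted p under 0.05 by edgeR, in comparisons where 54.3% to 61.5% of all genes were called. Their size depended on the scaling. Library totals alone lower the log2 fold changes against DMSO by 0.53 and 0.56. The lowest log2 values over the alternative settings were 2.67 and 2.22 against DMSO, and 2.58 and 2.28 against nelfinavir and ISRIB.

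HSPA5 was 1.34-fold higher with nelfinavir than with ISRIB in the presence of bortezomib (log2 difference 0.42 ± 0.097 SE, 95% interval 0.22 to 0.62, adjusted p = 0.00153; 24.4% of genes were called). Replicate 3 of bortezomib with nelfinavir, the library highest in HSPA5, contributed to the size of this difference, which was 0.32 without it.

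The effect of each added compound on HSPA5 depended on the presence of bortezomib. For nelfinavir the interaction, its effect with bortezomib minus its effect without, was 2.54 ± 0.140 (SE, 95% interval 2.25 to 2.82, adjusted p = 2.64e-15). This was the smallest p among genes with a positive interaction, and 19.7% of all genes were called. For ISRIB the interaction was 2.27 ± 0.139 (95% interval 1.99 to 2.55, adjusted p = 3.29e-13), the smallest p of all genes, while 4.82% were called.

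**Figure D3:**
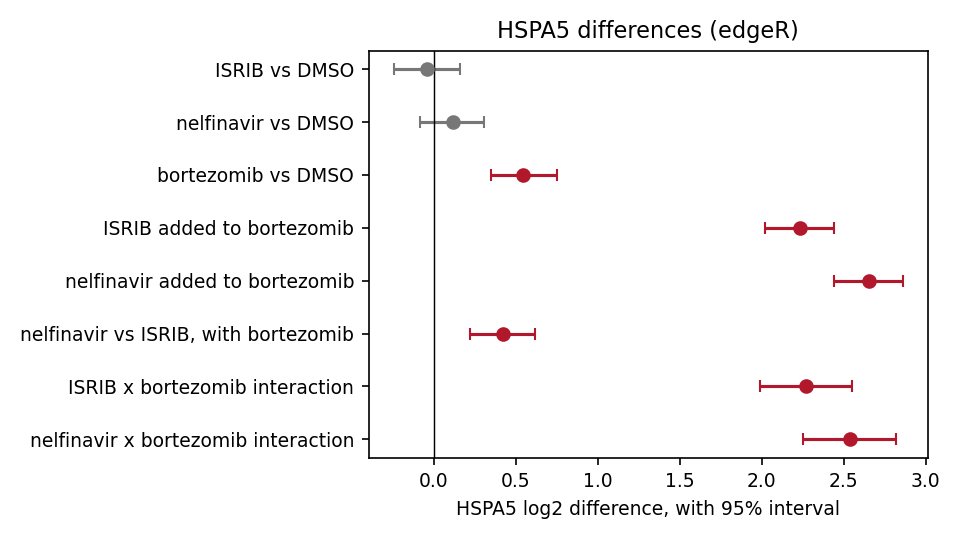
Log2 differences in HSPA5 (x axis) with 95% intervals (bars) from edgeR for 6 comparisons and both interactions (y axis). Red points pass an adjusted p of 0.05, and the values for ISRIB and nelfinavir alone (grey) have intervals that include 0.

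Most of the genes that work with BiP rose in the co-treatments. Of the 40 ER genes tested, 27 rose and none fell when nelfinavir was added to bortezomib (median log2 fold change 0.67, against -0.02 for all genes), where 15.6% of all genes rose and 13.4% fell. When ISRIB was added, 29 rose and none fell (median 0.75, against 0.01 for all genes), where 6.91% of all genes rose and 5.34% fell. These shares of all genes are the background for the list counts that follow. The log2 fold change of HSPA5 was above that of each of the 40 genes in both comparisons. The difference was tested as the ratio of HSPA5 to each gene in the same library, which needs no scaling. The ratio rose without overlap between groups for 38 of 40 genes with nelfinavir and for 36 of 40 with ISRIB, each with an adjusted p under 0.05 (exact permutation test, adjusted over 80 tests). The exceptions with nelfinavir were HERPUD1 (log2 change of the ratio 0.23) and ERO1B (0.34), and with ISRIB they were HERPUD1, ERO1B, MANF and EDEM1.

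Among the J-domain cochaperones, 6 of 8 rose with nelfinavir and 5 of 8 with ISRIB. DNAJB11 (ERdj3), which hands unfolded clients to BiP, rose by 1.17 ± 0.075 and 1.05 ± 0.075 on the log2 scale, respectively. DNAJC3 (p58IPK) rose by 1.17 ± 0.093 and 1.02 ± 0.093, and DNAJB9 by 1.37 ± 0.296 and 1.01 ± 0.298. DNAJB9 libraries varied widely, from 51.1 to 179 CPM with nelfinavir added and from 35.4 to 131 CPM with ISRIB added. The range with ISRIB overlapped that of bortezomib (35.9 to 50.3 CPM). Without replicate 2 of bortezomib with ISRIB, 3 cochaperones passed instead of 5.

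Of the 7 nucleotide exchange factors and regulators, 5 rose with nelfinavir and 6 with ISRIB. SDF2L1 changed by 2.11 ± 0.138 with nelfinavir and 1.87 ± 0.138 with ISRIB. HYOU1 (GRP170), the larger exchange factor, changed by 1.65 ± 0.110 and 1.15 ± 0.110. MANF, a secreted ER stress protein that binds BiP, changed by 1.4 ± 0.136 and 1.84 ± 0.138, and CRELD2 by 1.46 ± 0.133 and 1.61 ± 0.133. FICD, the enzyme that attaches and removes AMP on BiP, changed by 1.72 ± 0.196 and 1.01 ± 0.202. SIL1, the other exchange factor, passed neither test (-0.22 ± 0.155 and 0.04 ± 0.154).

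Levels of HYOU1 showed the same order of conditions as HSPA5 from bortezomib upward. HYOU1 was at 152 ± 8.54 CPM in DMSO, 264 ± 7.55 in bortezomib, 586 ± 106 with ISRIB added and 824 ± 92.8 with nelfinavir added (SD, n = 4). SDF2L1 was at 68.7 ± 11.5 CPM in DMSO and 56.3 ± 3.81 in bortezomib, and at 205 ± 45.2 and 243 ± 20.2 in the co-treatments with ISRIB and nelfinavir. Neither gene's bortezomib libraries overlapped those of a co-treatment.

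Of 11 folding partners tested, 9 rose with nelfinavir and 10 with ISRIB. HSP90B1 (GRP94), the partner that receives clients after BiP, was at 1660 ± 129 CPM in bortezomib, 3720 ± 555 with nelfinavir added and 3870 ± 453 with ISRIB added, log2 fold changes of 1.16 ± 0.101 and 1.22 ± 0.101. The ratio of HSPA5 to HSP90B1 counts was 1.28 in bortezomib (libraries from 1.22 to 1.39), 3.59 with nelfinavir added (2.76 to 4.98) and 2.59 with ISRIB added (2.29 to 3.49). Both rises of the ratio had an exact permutation p of 0.0286, or 0.0476 after adjustment over 15 ratios. ERO1B changed by 2.26 ± 0.216 and 1.38 ± 0.222, PPIB, a prolyl isomerase, by 0.86 ± 0.156 and 1.12 ± 0.155, and PDIA4, a disulfide isomerase, by 0.59 ± 0.137 and 1.33 ± 0.137.

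Of 11 ERAD genes tested, 6 rose with nelfinavir and 7 with ISRIB. HERPUD1 changed by 2.49 ± 0.203 and 1.86 ± 0.201, EDEM1, a lectin that selects misfolded glycoproteins, by 1.45 ± 0.354 and 1.94 ± 0.350, and SEL1L, the adaptor of the HRD1 ligase, by 1.21 ± 0.088 and 1.24 ± 0.088. Of the 3 KDEL receptors, KDELR1 rose with nelfinavir (0.44 ± 0.122) and KDELR3 with ISRIB (0.94 ± 0.177).

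**Figure D4:**
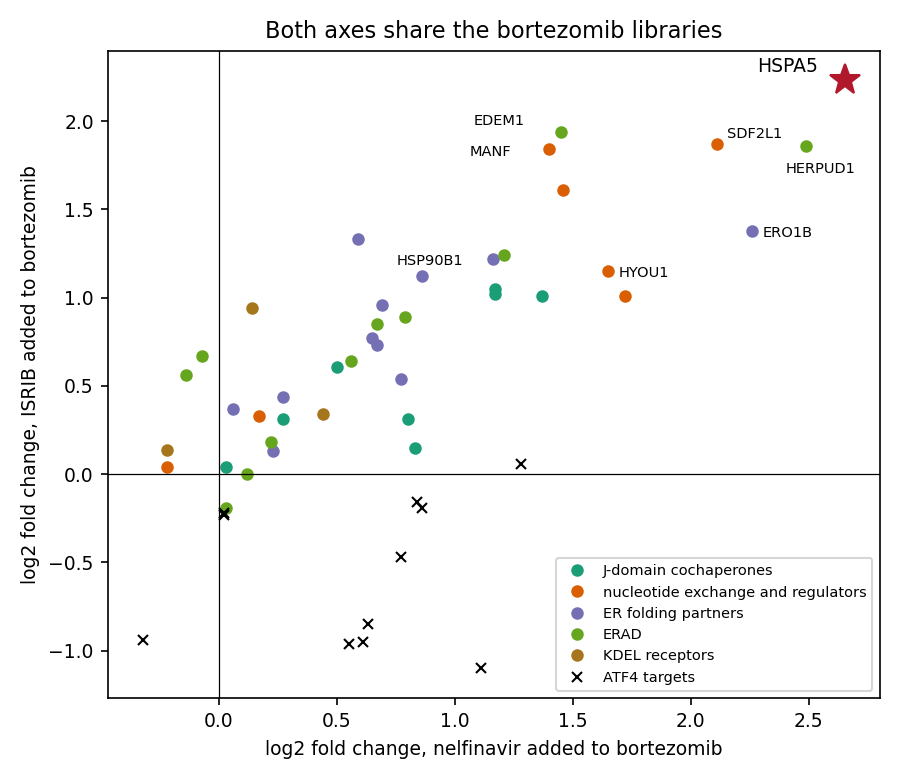
Log2 fold change on adding nelfinavir (x axis) and on adding ISRIB (y axis) to bortezomib for HSPA5 (star), the 40 tested ER genes (colored by list) and 11 ATF4 targets (crosses). Both axes share the same bortezomib libraries. HSPA5 lies at 2.65 and 2.23, above each ER gene on both axes, while the crosses lie at or below 0.06 on the y axis.

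The 7 other genes with an exact ERSE in the window changed unequally. With nelfinavir added to bortezomib the log2 fold changes were 2.26 for ERO1B, 1.72 for FICD, 1.46 for CRELD2, 1.16 for HSP90B1, 0.69 for CALR and 0.23 for CANX. XBP1 fell by 0.39. With ISRIB added they were 1.61 for CRELD2, 1.38 for ERO1B, 1.22 for HSP90B1, 1.01 for FICD and 0.96 for CALR, while CANX did not pass the test (0.13, adjusted p = 0.296) and XBP1 fell by 0.89. The sites also differ in place. Those of ERO1B (243 to 225 bases before the start, opposite strand) and FICD (154 to 136) lie farther from it than that of HSPA5 (66 to 48). So do those of the lectin chaperones CALR (225 to 207, opposite strand) and CANX (151 to 133). Both HSP90B1 sites (194 to 176 and 89 to 71) and that of CRELD2 (80 to 62) are farther away as well. The XBP1 site (52 to 34) is nearer. Whether any of these sites has a part in the changes was not tested.

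HSPA5 did not follow the ATF4 targets across the co-treatments. Of 11 ATF4 targets tested, 8 rose and 1 (DDIT4, -0.32 ± 0.085) fell when nelfinavir was added to bortezomib, whereas none rose and 6 fell when ISRIB was added. SESN2, a brake on mTORC1, changed by 1.11 ± 0.127 and -1.10 ± 0.130, and STC2, a secreted glycoprotein, by 0.55 ± 0.098 and -0.96 ± 0.101. ATF3, a stress transcription factor, changed by 0.61 ± 0.120 and -0.95 ± 0.126. The interaction with bortezomib was negative and passed the test for all 11 targets with nelfinavir, where 10% of all genes did so. With ISRIB it did for 4 targets and 1.89% of all genes. That of HSPA5 was positive with both compounds. The median log2 fold change of the targets was 2.81 with nelfinavir alone and 0.63 when it was added to bortezomib. Their negative nelfinavir interaction is thus a smaller change with bortezomib than without it.

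The UPR sensors and effectors divided. EIF2AK3, which encodes PERK, rose by 1.33 ± 0.143 with nelfinavir and by 1.02 ± 0.144 with ISRIB. It was the 1 gene of 8 that rose with ISRIB, while 4 fell, including PPP1R15A (GADD34), the stress-induced eIF2α phosphatase subunit (-1.10 ± 0.112), and XBP1 (-0.89 ± 0.108). With nelfinavir 4 rose, including DDIT3 (CHOP), by 0.99 ± 0.116, and ATF4, by 0.84 ± 0.115, and XBP1 fell (-0.39 ± 0.105). Total XBP1 counts do not separate its spliced form.

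The other HSP70 genes were mixed in the co-treatments. Of 12 tested, 6 rose and 2 fell with nelfinavir, and 1 rose and 3 fell with ISRIB. HSPA6, a strictly stress-induced cytosolic member, rose by 4.74 ± 0.238 with nelfinavir, above the log2 fold change of HSPA5, and was at -0.22 ± 0.285 with ISRIB, which did not pass the test. HSPA6 shares 3′ sequence with the pseudogene HSPA7, so its reads are uncertain. HSPA1A rose in both co-treatments, by 1.01 ± 0.114 and 0.41 ± 0.113, with the limit on its copies given above. With nelfinavir HSPH1 rose by 1.22 ± 0.115 and HSPA4L by 1.03 ± 0.144. With ISRIB HSPH1 changed by -0.38 ± 0.114 and HSPA9 by -0.38 ± 0.102. Counts of HSPA5 per count of HSPA9 were 6.15 in bortezomib, 39.4 with nelfinavir added and 38.0 with ISRIB added (exact permutation p = 0.0286 for each rise, adjusted p = 0.0476).

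RABEPK, the gene whose 3′ end faces that of HSPA5, did not rise in either co-treatment. Its log2 fold change was -0.19 ± 0.127 (adjusted p = 0.262) with nelfinavir and -0.15 ± 0.127 (adjusted p = 0.487) with ISRIB, and it fell with bortezomib alone (-0.64 ± 0.121, adjusted p = 3.39e-05).

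The library highest in HSPA5 in each co-treatment was replicate 3. Its folding partners summed to 10900 CPM with nelfinavir, in a group from 10200 to 11080 CPM, and to 10780 CPM with ISRIB, in a group from 10720 to 11520 CPM. Exchange factors and regulators also lay within both groups, but some other lists did not. With nelfinavir, replicate 3 was highest for UPR sensors and effectors (2163 CPM) and ATF4 targets (3212 CPM), and narrowly for KDEL receptors (1108 CPM, against 1107 in replicate 4). With ISRIB, replicate 3 was lowest for J-domain cochaperones (1276 CPM), ERAD (919.7 CPM) and the other HSP70 genes (7367 CPM). It was highest for UPR sensors and effectors (1031 CPM) and KDEL receptors (1236 CPM). Hepatocyte genes were lowest in replicate 3 of both (5831 and 8346 CPM). These libraries also had the lowest mitochondrial share of their groups (24.9% and 32.6%), whose part in the HSPA5 value was not tested. Without them HSPA5 still changed by 2.55 (nelfinavir) and 2.16 (ISRIB) on the log2 scale against bortezomib.

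The genes whose response was nearest to that of HSPA5 were ranked by the root-mean-square distance between log2 fold changes against DMSO over the 5 treated conditions, among 7890 genes with a mean of at least 10 CPM. All 5 fold changes share the DMSO libraries. The nearest were HYOU1 (distance 0.54), EIF2AK3 (0.55), TSPYL2 (0.57), CSGALNACT2 (0.60), HERPUD1 (0.61), CYR61 (0.61), PNPLA8 (0.62) and CDR2 (0.64). Of these, 3 are on the ER and UPR lists. Each of the 8 had a higher log2 fold change than HSPA5 with bortezomib alone, from 0.80 for HYOU1 to 1.64 for PNPLA8. The choice depended on the expression minimum, since 2 of the 8 (HYOU1 and EIF2AK3) were kept with no minimum. A minimum of 50 CPM could keep only HYOU1 and HERPUD1, because the others have means from 13.3 to 38.2 CPM.

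**Figure D5:**
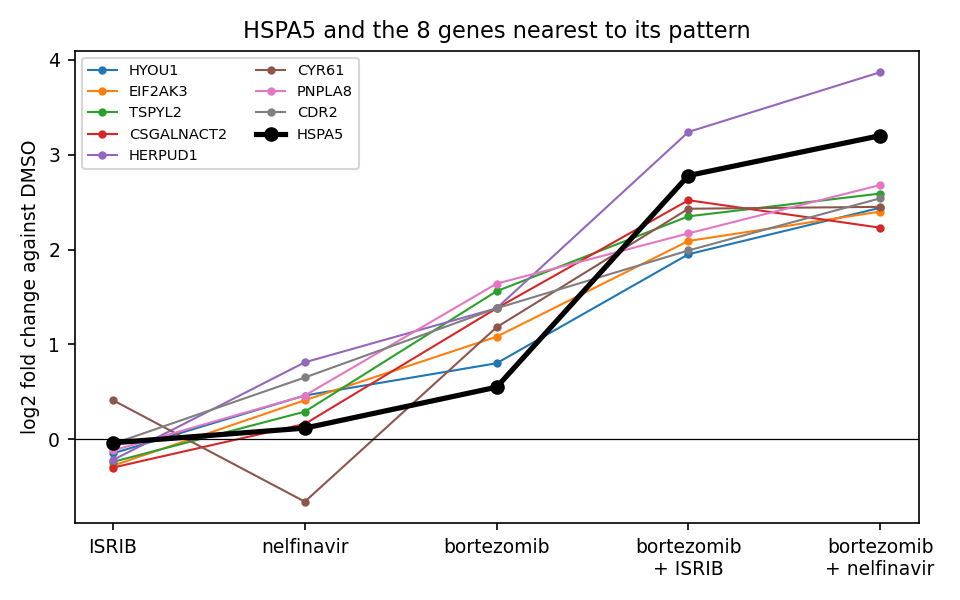
Log2 fold change against DMSO (y axis) in the 5 treated conditions (x axis) for HSPA5 (thick black line) and the 8 genes nearest to its pattern (thin lines). HSPA5 is at 0.55 with bortezomib, below the 8 others, and at 2.78 and 3.20 in the co-treatments, where HERPUD1 alone is higher.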

How the data were processed

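HepG2 RNA (4 libraries for each of 6 conditions) was sequenced with the QuantSeq 3′ FWD kit, as single-end reads of 80 bp, in which read number does not scale with transcript length. The authors trimmed reads with cutadapt 2.8, ran STAR against hg19 within an nf-core workflow and deposited unnormalized read counts per gene. No source used here names the counting program, its strand setting or any molecular identifiers, so intervals on counts cover counting error only.

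Genes were kept with filterByExpr (minimum count 5, total 25), which left 12685 of 18915, given TMM factors and compared by edgeR 4.0.16's quasi-likelihood test in R 4.3.3, all 24 libraries in 1 model, with Benjamini-Hochberg adjustment over all genes tested and a threshold of 0.05. HSPA5 log2 CPM used a prior count of 2. Errors of log2 fold changes are standard errors. For single values, exact permutation tests were two-sided (SciPy). Alternatives were DESeq2 1.42.0, RLE or upper-quartile factors, library totals alone, no filter or edgeR's default filter, only the groups compared, a replicate block, thinning to the smallest library, removal of mitochondrial genes or of the 20 most counted genes, and leaving out each library. The ratios within libraries were added after the data were seen.

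Named genes are HSPA5, list members (for each list, up to 4 of the largest changes among those called, and any that a sentence singles out), and the 8 nearest patterns. The gene, the lists and the tests were chosen with earlier results of these data known, so that list counts are descriptions. Gene positions are from GENCODE on GRCh37, near copies were sought with BLAST, and promoters are from RefSeq. The test was checked on simulated counts. Replicates were compared by chi-square, and no pair agreed within sampling noise (lowest value 2.19 per degree of freedom). Protein sequences were not analysed here.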

Additional observations from a re-analysis of the deposited data

Results flagged for a closer look

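Effects that differed between cells with and without bortezomib were tested as interactions. For HSPA5 they were 2.54 with nelfinavir and 2.27 with ISRIB on the log2 scale. Of the BiP partners whose levels are given by library or group, HSP90B1 had interactions of 1.37 with nelfinavir and 1.49 with ISRIB, HYOU1 of 1.19 and 1.31, SDF2L1 of 2.55 and 1.85, and HERPUD1 of 1.67 and 2.08, all with an adjusted p under 0.05 by edgeR. RABEPK passed neither test.

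Single libraries stood apart from the other 3 of their group in 5 of 36 groups (6 genes in 6 conditions) by Dixon's test, whose 95% level flags about 1 group in 20 by chance. HYOU1 was at 139.0 CPM in DMSO replicate 3, below 154.9 to 157.2 in the others. SDF2L1 was at 273.2 CPM in replicate 3 of bortezomib with nelfinavir (others 229.6 to 234.9) and at 42.04 CPM in nelfinavir replicate 4 (others 53.44 to 53.79). HERPUD1 was at 175.1 CPM in replicate 3 of bortezomib with ISRIB (others 314.6 to 336.3) and at 84.66 CPM in bortezomib replicate 3 (others 76.26 to 77.39). No HSPA5 library stood apart in any of the 6 conditions by this test. The replicate 3 library that was low for HERPUD1 was the highest of its group for HSPA5 (11309 CPM).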

How the results depend on the processing

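HSPA5 kept its direction and its side of the threshold in 141 of 143 values over 13 comparisons and 11 alternative settings, and in 120 of 120 values with 1 library left out. The exceptions came with library totals alone, where bortezomib differed from DMSO by 0.051 (adjusted p = 0.680) and from nelfinavir by -0.04 (adjusted p = 0.754, against 0.43 with TMM), since that scaling lowers bortezomib by 0.50 on the log2 scale. Over the other settings and left-out libraries, nelfinavir added to bortezomib gave 2.54 to 2.77 and ISRIB added gave 2.16 to 2.29. Whether replicate numbers pair the libraries was not tested. Of 60 pairs with the same number, 17 correlated above 0.1 after removal of group means, against 38 of 180 with other numbers. The median correlations were 0.0344 and -0.0184, respectively. With the replicate block, HSPA5 changed by 2.64 and 2.22 in these comparisons and no HSPA5 call changed, while the ER genes that fell with nelfinavir alone numbered 4 in place of 2.

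Counts over all genes moved more. With library totals alone, bortezomib against DMSO gave 1490 higher and 6266 lower genes, against 3498 and 3275. With only the groups compared, nelfinavir added to bortezomib gave 1284 higher and 962 lower (1975 and 1694 in the full model), ISRIB added gave 510 and 357 (876 and 677), their direct comparison gave 985 and 755 (1669 and 1429), and nelfinavir alone gave 1948 lower (1121). ISRIB alone, with 0 genes called, gave 1 higher and 20 lower with DESeq2, 5 and 34 without a filter and 4 and 76 with only its groups. DESeq2 gave 436 lower genes for the ISRIB interaction (240). The ER genes that rose numbered 26 to 29 in each co-treatment over all settings. HSP70 genes that fell with nelfinavir numbered 1 in place of 2 with DESeq2, without any single bortezomib library and without replicate 3 or 4 of the co-treatment. The planned protein comparison was not run.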

Other observations

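HSPA5 per count of HSPA8 also varied among replicates, from 15.3 to 48.5 in bortezomib with nelfinavir and from 11.6 to 32.0 in bortezomib with ISRIB, against 2.36 to 2.83 in bortezomib. In nelfinavir alone this ratio was 8.31, against 4.50 in DMSO (exact permutation p = 0.0286, adjusted p = 0.0476), where HSPA8 itself fell (log2 fold change -0.76 ± 0.189) and HSPA5 did not pass the test.

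When up to 1 change was allowed in the CCACG letters, a search added after the data were seen, SDF2L1, SEL1L and HERPUD1 joined the ER genes with an ERSE, and 0.996% of all promoters matched. An exact heat shock element lay in the window of 2 of 12 other HSP70 genes, HSPA6 and HSPA8, and in none of the 36 ER promoters.

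Among hepatocyte genes, 6 of 8 fell and none rose when nelfinavir was added to bortezomib, including AFP (-0.59 ± 0.135), against 13.4% of all genes lower and 15.6% higher. When ISRIB was added 3 rose, including TTR (0.80 ± 0.120), and 2 fell, against 6.91% of all genes higher and 5.34% lower, in the same libraries in which HSPA5 rose.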
